A study of Homo sapiens with 38 samples.

Results

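The enzymes that write, copy and oxidise DNA methylation were followed in human embryonic stem cells of the established line Shef6 as they left the naive state. The genes are DNMT1, DNMT3A, DNMT3B, DNMT3L, UHRF1, TET1, TET2 and TET3, taken by symbol from the count table, 8 of its 57133 genes. In all groups the cells were naive Shef6 cells that had been adapted to a serum coating without feeder cells, and Shef6 had been brought to the naive state by epigenetic resetting, so every value describes 1 line. Naive cells (day 0) were kept in PXGL, which is N2B27 basal medium with inhibitors of MEK, tankyrase and protein kinase C and the cytokine LIF. The first experiment (Ex1) holds 30 libraries in 15 groups of 2, with naive cells grown either on the serum coating or on Geltrex, which is a basement membrane matrix, and cells on Geltrex in N2B27 or in E8 at days 2, 3, 4, 6 and 8 or in mTeSR at days 4, 6 and 8. E8 and mTeSR are defined media for primed human pluripotent stem cells that supply FGF2 and a TGF-beta ligand, whereas N2B27 alone supplies neither. The second experiment (Ex2) holds 8 libraries in 4 groups of 2, all on Geltrex, with naive cells and cells at day 4 in N2B27, in N2B27 with the tankyrase inhibitor XAV, or in N2B27 with FGF2, XAV and Activin A (FAX).

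DNA methylation at CpG sites is set by DNMT3A and DNMT3B, the de novo methyltransferases. DNMT3L lacks catalytic activity and acts as their cofactor. DNMT1 copies the pattern onto the new strand after replication, and it is brought there by UHRF1, a ubiquitin ligase that reads hemimethylated DNA. TET1, TET2 and TET3 oxidise 5-methylcytosine and start its removal. Naive pluripotent cells are known for a genome with little methylation, which gains methylation when cells move towards the primed state (capacitation). Only transcripts were counted here, and neither methylation nor protein was measured.

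The libraries were made with a 3′ end kit, so counts were scaled to the size of the library and are given as CPM and not by transcript length, and levels are compared between conditions and not between genes. Total counts were 3038046 to 5612354 per library (median 4427277). A count of 3, taken as the floor, was worth 0.520 to 1.06 CPM, and 7 of the 8 genes were far above it everywhere, with TET2 at 5 to 258 counts and TET3 at 21 to 94 counts the thinnest. A gene is said to have passed, or to have risen or fallen, when the adjusted p was under 0.05 over all 16674 genes tested with the quasi-likelihood test of edgeR, and to be called when it also changed more than 2-fold. All 8 genes cleared the filter on low counts. In GENCODE 44 (GRCh38) DNMT1 lies at chromosome 19, 10133342 to 10231286, DNMT3A at chromosome 2, 25227855 to 25342590, DNMT3B at chromosome 20, 32762385 to 32809359 and DNMT3L at chromosome 21, 44246339 to 44262216. UHRF1 lies at chromosome 19, 4903080 to 4962154, TET1 at chromosome 10, 68560337 to 68694487, TET2 at chromosome 4, 105145875 to 105279816 and TET3 at chromosome 2, 73984910 to 74108176, and no other annotated gene covers the 3′ end of any of the 8. The cells at day 8 had the marker profile of capacitated cells, with 8 of 8 primed or formative markers higher and 7 of 8 naive markers lower than in naive cells in each of N2B27, E8 and mTeSR. The column names of the Ex2 naive libraries carry a day 4 tag that their labels do not. Their summed primed markers (30.7 to 32.6 CPM) were near those of Ex1 naive cells (33.4 to 41.9 CPM). They were not near those of N2B27 at day 4 (332 to 402 CPM). These values cannot tell naive cells sampled at day 0 from cells kept in PXGL until day 4. These are bulk samples, in which fewer cells of a type and less RNA per cell cannot be told apart.

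The pattern over the 8 genes was a rise of DNMT3B, a fall of DNMT3L and TET2, a transient rise of DNMT3A, a rise of DNMT1 and a fall of UHRF1 whose size and timing depended on which naive libraries they were set against, small differences in TET1, and in TET3 a fall that passed at day 6 in N2B27 alone. Over the 15 conditions set against the 6 naive libraries, 90 of 120 gene and condition pairs passed (50 higher and 40 lower), where 40.6% of all gene and condition pairs passed, and 50 were called, where 20.8% of all pairs were. The 15 comparisons share the same 6 naive libraries, so they are not independent of one another. Between 5 and 7 of the 8 genes passed in any 1 condition. In N2B27 these were 6 genes on day 2 (all genes: 35.3%), 6 on day 3 (33.2%), 7 on day 4 (42.4%), 6 on day 6 (44.7%) and 6 on day 8 (45.1%). In E8 the counts were 5 (47.2%), 5 (35.3%), 7 (40.5%), 6 (42.3%) and 5 (49.9%) at the same days. In mTeSR they were 6 (38%), 7 (42.1%) and 6 (45.4%) at days 4, 6 and 8, and at day 4 they were 6 with XAV (33.4%) and 6 with FAX (34.1%).

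**Figure D1:**
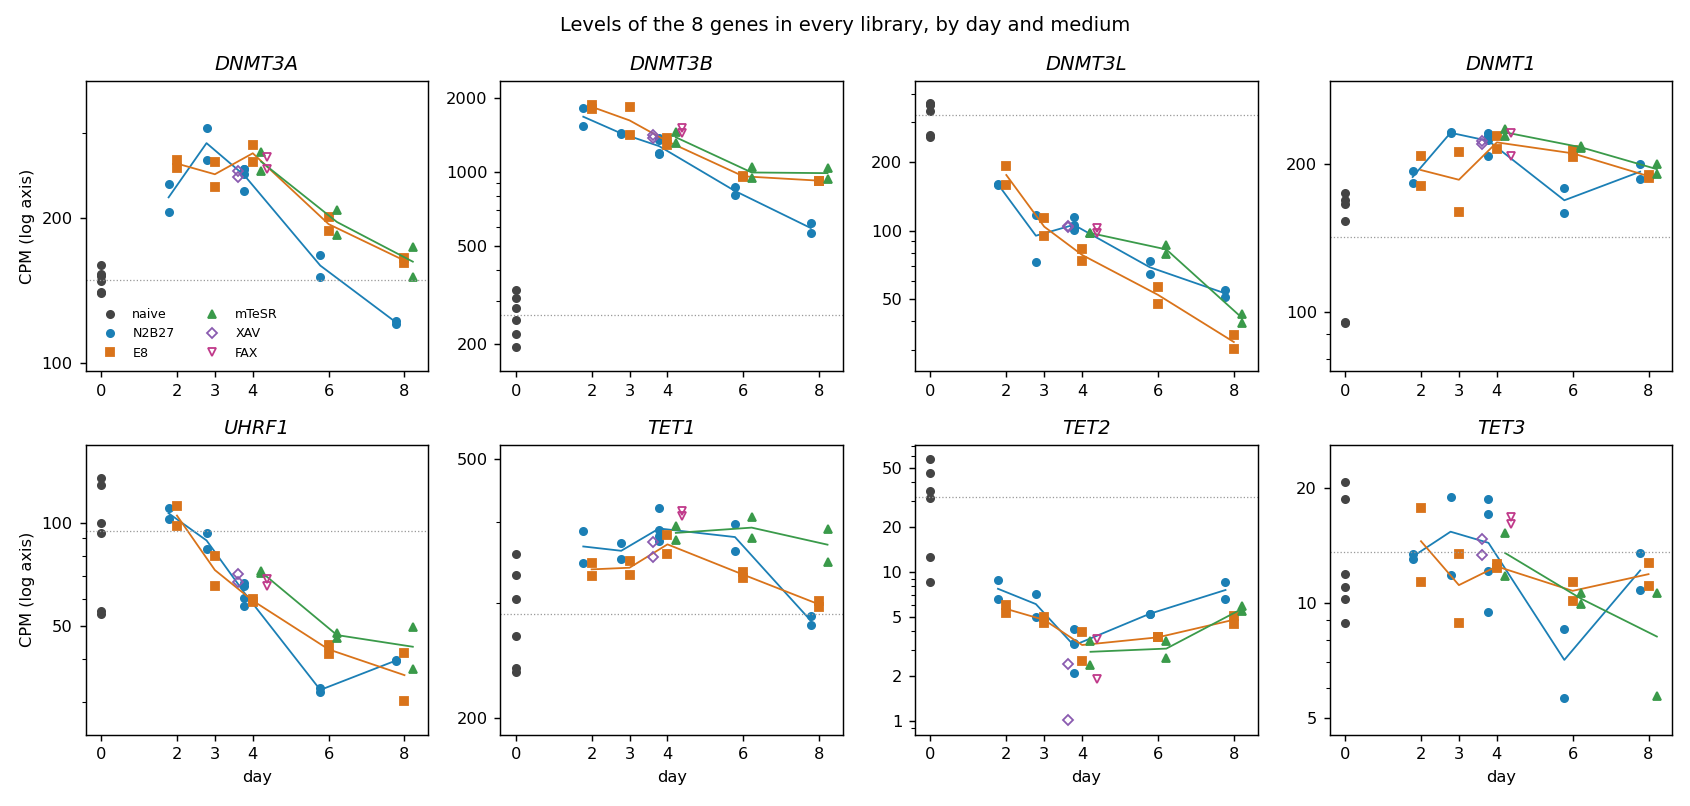
Level of each gene in every library in CPM (log axis) against day, with 1 point per library, colours for media, lines through the mean of 2 libraries (4 for N2B27 at day 4) and a dotted line at the mean of the 6 naive libraries. DNMT3B stands above and DNMT3L below the naive libraries in every condition, and the naive points of TET2 reach from 8.58 to 57.1 CPM.

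DNMT3B, a de novo methyltransferase, rose in all 15 conditions, and in each medium its mean level was highest at the first day sampled. Naive libraries held 331, 308, 280.1 and 250.1 CPM in Ex1 and 219.6 and 194 CPM in Ex2. In N2B27 the level was 1530.4 and 1821 CPM at day 2, 1426 and 1442 CPM at day 3, 1348, 1370.1, 1195 and 1179 CPM at day 4, 865 and 809 CPM at day 6 and 563 and 620.5 CPM at day 8. No library of any of the 15 conditions overlapped the naive range, and after day 2 the N2B27 level came down step by step without reaching it. In E8 it was 1871 and 1806 CPM at day 2, 1832 and 1406 CPM at day 3, 1287 and 1374 CPM at day 4, 967 and 954 CPM at day 6 and 923 and 921 CPM at day 8. In mTeSR it was 1449 and 1316 CPM at day 4, 1044 and 946 CPM at day 6 and 938 and 1039 CPM at day 8. E8 and mTeSR thus kept higher levels than N2B27 at day 8. The log2 fold change against naive cells was 2.67 (SE 0.115, adjusted p = 3.72e-19) at day 2 in N2B27, a 6.34-fold difference, and 1.16 (SE 0.120, adjusted p = 6.65e-10) at day 8. At day 8 it was 1.80 (SE 0.117, adjusted p = 6.49e-15) in E8 and 1.9 (SE 0.117, adjusted p = 1.76e-15) in mTeSR. All 15 differences exceeded 2-fold, and all 15 passed under each alternative analysis and without any single library.

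DNMT3L, the cofactor without catalytic activity, moved the other way, and in each medium its mean level was lowest at day 8. Its naive level was 359, 362, 365 and 337 CPM in Ex1 and 259 and 263 CPM in Ex2. In N2B27 it was 161 and 159 CPM at day 2, 72.6 and 118 CPM at day 3, 103, 101, 106 and 116 CPM at day 4, 64.8 and 73.5 CPM at day 6 and 54.9 and 51.1 CPM at day 8. Every library of the 15 conditions lay below all 6 naive libraries. In E8 the level went from 159 and 194 CPM at day 2 through 94.6 and 114 CPM at day 3, 73.7 and 82.8 CPM at day 4 and 47.8 and 56.7 CPM at day 6 to 34.7 and 30.1 CPM at day 8. In mTeSR it was 97.9 and 97.6 CPM at day 4, 79.2 and 86.4 CPM at day 6 and 43.2 and 39.5 CPM at day 8. The E8 libraries at day 8 were the lowest of the whole series. At day 2 the log2 fold change was -1.02 (SE 0.144, adjusted p = 1.09e-06) in N2B27 and -0.88 (SE 0.145, adjusted p = 7.56e-06) in E8. By day 8 it was -3.32 (SE 0.174, adjusted p = 2.15e-17) in E8, a 9.99-fold lower level, and -2.97 (SE 0.172, adjusted p = 3.27e-16) in mTeSR. All 15 differences passed, also in each alternative and without any single library.

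Taken within each library, the count of DNMT3B per count of DNMT3L gives the exchange of enzyme and cofactor without any scaling between libraries. Because the genes were not normalised for length or for priming at their 3′ ends, this ratio can be compared between conditions but does not count molecules of one per molecule of the other. The ratio was 0.743 to 0.921 in the 4 naive libraries of Ex1 and 0.737 to 0.847 in those of Ex2, so the lower naive levels of both genes in Ex2 left their ratio within the Ex1 range or just under it. It was 9.50 and 11.4 in N2B27 and 9.33 and 11.8 in E8 at day 2. At day 8 it was 10.3 and 12.1 in N2B27, 21.7 and 26.3 in mTeSR and 26.6 and 30.6 in E8. The ratio in N2B27 at day 8 was therefore near that of day 2, as both genes had come down, whereas in E8 and mTeSR it was higher than in any day 2 library.

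**Figure D2:**
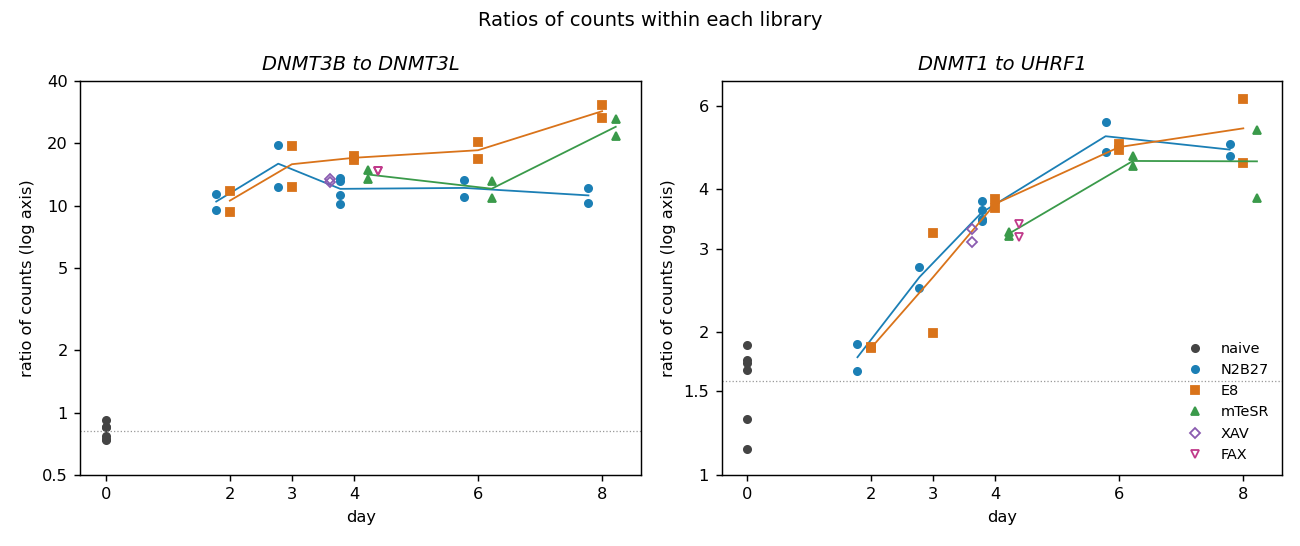
Ratio of counts within each library (log axis) against day for DNMT3B to DNMT3L (left) and DNMT1 to UHRF1 (right), with 1 point per library, lines through the mean of each medium and a dotted line at the naive mean. DNMT3B to DNMT3L goes from below 1 in all 6 naive libraries to 26.6 to 30.6 in E8 at day 8, and DNMT1 to UHRF1 from 1.13 to 1.88 in naive cells to 4.80 to 5.55 in N2B27 at day 6.

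DNMT3A, the other de novo methyltransferase, rose early and returned towards the naive level. The 6 naive libraries held 139.7 to 159.8 CPM, with the Ex2 values (148 and 140.3 CPM) inside or at the edge of the Ex1 values (139.7, 159.8, 151 and 153 CPM). In N2B27 the level was 205 and 235 CPM at day 2, 307 and 264 CPM at day 3, 252, 228, 252 and 247 CPM at day 4, 168 and 151 CPM at day 6 and 122 and 120.3 CPM at day 8. It thus stood above the naive range at days 2 to 4, overlapped it at day 6 and lay below it at day 8. In E8 the values were 264 and 254 CPM at day 2, 261 and 283 CPM at day 4, 200.4 and 188 CPM at day 6 and 165 and 161 CPM at day 8, and in mTeSR 249 and 273 CPM at day 4 and 151 and 174 CPM at day 8. The largest change was at day 3 in N2B27, with a log2 fold change of 0.94 (SE 0.0862, adjusted p = 1.01e-10). DNMT3A passed in 12 of 15 conditions, 11 higher and 1 lower, and none of the 12 exceeded 2-fold. The lower one was day 8 in N2B27 (-0.29, SE 0.0932, adjusted p = 0.00996), which no longer passed without N2B27 day 8 replicate 1 or without replicate 2 (highest adjusted p = 0.0886). The other 11 passed in each alternative. At day 8 the difference from naive cells was 0.13 (95% interval -0.04 to 0.31) in E8 and 0.12 (-0.05 to 0.30) in mTeSR, and neither passed.

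DNMT1, the maintenance methyltransferase, was higher after exit, but its naive level differed between experiments. It was 153, 169, 165 and 174 CPM in the naive libraries of Ex1 and 95.3 and 94.6 CPM in those of Ex2. In N2B27 it was 193 and 182 CPM at day 2, 232 and 231 CPM at day 3, 228, 231, 208 and 223 CPM at day 4, 178 and 159 CPM at day 6 and 186 and 199 CPM at day 8. In E8 it was 180.4 and 208 CPM at day 2, 159.5 and 211 CPM at day 3, 214 and 228 CPM at day 4, 207 and 213 CPM at day 6 and 189.8 and 187 CPM at day 8, and in mTeSR it was highest at day 4, with 228 and 236 CPM. The 2 naive libraries of Ex2 were the lowest of all 38, and 13 of the 15 conditions lay above the whole naive range. Against all 6 naive libraries DNMT1 passed in 14 of 15 conditions, all higher and none above 2-fold, with log2 fold changes of 0.38 to 0.70 among them. Against the naive libraries of the same experiment it passed in 11, and the Ex1 differences shrank, for example from 0.40 to 0.19 (adjusted p = 0.0758) at day 8 in E8 and from 0.40 to 0.18 (adjusted p = 0.113) at day 2 in N2B27. The Ex2 differences grew past 2-fold, to 1.22 with XAV, 1.21 with FAX and 1.18 in N2B27 at day 4 (adjusted p = 1.11e-10, 1.44e-10 and 2.06e-10). Against the Geltrex naive libraries of the same experiment it passed in 8, none of them at day 2 or 8. Day 3 in N2B27 passed in each, and was at 0.48 against the naive libraries of Ex1 (adjusted p = 5.64e-05). Leaving out 1 library ended 6 of the 14 passing differences: either library of the condition itself for days 2 and 8 in N2B27 and day 8 in E8 and mTeSR, replicate 2 for days 2 and 3 in E8, and either Ex2 naive library for day 2 in N2B27 and day 3 in E8. The highest adjusted p of these 6 lay between 0.113 and 0.570, and 4 of the 14 passed in each alternative.

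UHRF1, the factor that recruits DNMT1, fell in N2B27, E8 and mTeSR, and the day from which it passed depended on the naive libraries used. It stood at 135, 129, 99.7 and 92.9 CPM in naive libraries of Ex1 and at 55.3 and 54.2 CPM in those of Ex2. In N2B27 it was 102 and 110.3 CPM at day 2, 93.5 and 83.9 CPM at day 3, 60.3, 66.8, 57.3 and 65.2 CPM at day 4, 32.1 and 33.0 CPM at day 6 and 39.4 and 39.9 CPM at day 8. Days 6 and 8 lay below every naive library, while days 2 to 4 overlapped the range of all 6, at day 4 only through the lower Ex2 libraries. In E8 it was 97.7 and 112 CPM at day 2, 80.0 and 65.4 CPM at day 3, 58.7 and 59.8 CPM at day 4, 41.5 and 43.9 CPM at day 6 and 41.8 and 30.1 CPM at day 8, and in mTeSR 71.3 and 72.3 CPM at day 4 and 37.5 and 49.5 CPM at day 8. At day 6 in N2B27 the log2 fold change was -1.54 (SE 0.233, adjusted p = 1.58e-06), and at day 8 it was -1.26 (SE 0.226, adjusted p = 2.27e-05) in N2B27, -1.39 (SE 0.230, adjusted p = 5.29e-06) in E8 and -1.13 (SE 0.230, adjusted p = 1.23e-04) in mTeSR. All 6 conditions of days 6 and 8 were lower by more than 2-fold and passed in each alternative. At day 4, N2B27 and E8 also passed, at -0.60 and -0.68. Both were lost with the compared libraries fitted alone (adjusted p = 0.0536 and 0.136), and the E8 one also without E8 day 4 replicate 1 or without replicate 2 (adjusted p up to 0.0918). The day courses all belong to Ex1, and day 3 in E8 and day 4 in N2B27 (Ex1), E8 and mTeSR lay below every naive library of Ex1. Against those libraries UHRF1 passed as lower from day 3, at -0.36 (adjusted p = 0.0307) in N2B27 and -0.65 (adjusted p = 2.10e-04) in E8, and at day 4 it was at -0.84, -0.94 and -0.67 in N2B27, E8 and mTeSR (adjusted p = 4.53e-06, 7.79e-07 and 1.40e-04). Day 2 did not pass in either medium. Against the Geltrex naive libraries of Ex1 alone, day 3 in N2B27 overlapped and was at -0.12 (adjusted p = 0.509), so that difference rested on the serum libraries, while day 3 in E8 (-0.41, adjusted p = 0.0127) and day 4 in N2B27 (-0.60, adjusted p = 3.43e-04), E8 and mTeSR passed. The ratio of DNMT1 to UHRF1 counts was 1.13 to 1.88 in naive libraries, 1.65 and 1.89 at day 2 and 4.80 and 5.55 at day 6 in N2B27.

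The promoters of both maintenance genes carry a short sequence that is frequent at genes of DNA replication, and they are shown for that reason. Windows of 300 bases, from 250 before to 50 after each annotated start, were available from RefSeq (GRCh38.p14) for 7 of the 8 genes, 18 windows in all, and the window of DNMT3L was not analysed here. The core of the E2F binding motif was searched on both strands as TTTCCCGC, TTTCGCGC, TTTGCCGC and TTTGGCGC. It was present in 3.31% of 35116 promoter windows, and in any window of 3.99% of 27305 genes. Among the 18 windows it was found in 2 of the 3 of UHRF1 and in the 1 of DNMT1, and 9 of the 10 genes with a window, of a list of 14 genes of DNA replication and its control, held it in any window. The stretch of each window that holds the match is printed on the strand of the gene, with the match in capitals. UHRF1 lies on the forward strand and DNMT1 on the reverse strand, and each of the 3 windows held 1 match. A match describes the letters and no match says only that these letters are not in the window, since binding was not measured.
UHRF1 promoter, chr19:4909387-4909500: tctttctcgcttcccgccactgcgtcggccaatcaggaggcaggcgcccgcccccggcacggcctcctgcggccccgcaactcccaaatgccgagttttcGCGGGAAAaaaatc
UHRF1 second promoter, chr19:4909894-4910011: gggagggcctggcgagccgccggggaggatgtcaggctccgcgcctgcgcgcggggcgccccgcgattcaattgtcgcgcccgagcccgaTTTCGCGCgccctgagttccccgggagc
DNMT1 promoter, chr19:10194948-10195055: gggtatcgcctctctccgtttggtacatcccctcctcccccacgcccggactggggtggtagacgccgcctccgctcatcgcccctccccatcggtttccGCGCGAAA

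Genes of DNA replication were counted beside UHRF1. Of the 14 genes of that list, 0 were higher and 5 lower at day 8 in N2B27, 0 and 4 in E8, and 0 and 5 in mTeSR, with medians of -0.22, -0.21 and -0.26 (all genes: -0.03, 0.00 and -0.02). At that day 24.7% of all genes were higher and 20.4% lower in N2B27, 26.8% and 23.1% in E8, and 24.7% and 20.7% in mTeSR. E2F1, a transcription factor of the cell cycle, had a log2 fold change of -1.18 (adjusted p = 2.30e-08) at day 8 in N2B27. MCM2, a subunit of the replicative helicase, had one of -0.75 (adjusted p = 5.50e-05) there. At day 2 in N2B27, when UHRF1 was at 0.16 (adjusted p = 0.561), 6 of the 14 replication genes were higher and 1 lower, where 18.9% and 16.4% of all genes were. Of 6 mitosis genes, 1 was higher and 0 lower at day 8 in N2B27, 1 and 4 in E8, and 0 and 4 in mTeSR, with medians of -0.08, -0.35 and -0.31.

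TET2 fell in all 15 conditions. The naive libraries held 57.1, 46.1, 31.2 and 34.8 CPM in Ex1 and 12.6 and 8.58 CPM in Ex2, a wider spread as a ratio than in any of the other 7 genes. All other libraries lay between 1.01 and 8.78 CPM. In N2B27 TET2 was at 6.60 and 8.78 CPM at day 2 and 6.61 and 8.49 CPM at day 8, in E8 at 5.06 and 4.47 CPM and in mTeSR at 5.43 and 5.88 CPM at day 8. In 14 of the 15 conditions every library was below all naive libraries, and the 1 overlap was with the lower naive library of Ex2. The log2 fold changes were -2.51 in E8 and -2.07 in N2B27 at day 2 (SE 0.480 and 0.426, adjusted p = 6.70e-05 and 2.82e-04). The E8 value was -3.31 with a library score as covariate, the main axis along which replicates differed. That axis held 20.4% of the variance of replicate differences. Both E8 libraries at day 2 scored -2.50 and -2.47, below all naive libraries (-1.07 to 0.85), so score and condition are partly confounded there. At day 8 the changes were -2.08 in N2B27 and -2.74 in E8 (SE 0.421 and 0.457). All 15 exceeded 2-fold and passed in each alternative, also against the naive libraries of the same experiment, where the fall at day 4 in N2B27 was -3.50 within Ex1 and -1.93 within Ex2.

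TET1 stayed within a narrow band in all 38 libraries. Naive libraries held 357, 331, 305 and 268 CPM in Ex1 and 239 and 236 CPM in Ex2, and all others lay between 278 and 420 CPM. It passed in 10 of 15 conditions, all higher by less than 2-fold, with the largest difference in FAX (0.51, SE 0.107, adjusted p = 3.07e-04). The size depended on the naive libraries used. Against those of Ex2 TET1 was at 0.79 in FAX, 0.61 in XAV and 0.70 in N2B27 at day 4. Against those of Ex1, days 2 and 3 in N2B27 were at 0.22 and 0.20 and did not pass (adjusted p = 0.0507 and 0.0831). Both passed against the Geltrex naive libraries of Ex1 (0.36 and 0.34, adjusted p = 0.00237 and 0.00452). Leaving out 1 library of the condition itself ended 7 of the 10 passing differences: replicate 1 for days 2 and 6 in N2B27 and day 4 in mTeSR, replicate 2 for day 4 in E8 and day 8 in mTeSR, and either replicate for day 3 in N2B27 and for XAV. The highest adjusted p of these 7 lay between 0.0521 and 0.186, and 3 of the 10 passed in each alternative. At day 8 the difference from naive cells was -0.04 (95% interval -0.25 to 0.18) in N2B27 and 0.05 (-0.17 to 0.26) in E8. TET3 was low throughout, at 8.85 to 20.8 CPM in naive libraries and 5.64 to 20.8 CPM over the series. It passed only at day 6 in N2B27 (-0.95, SE 0.308, adjusted p = 0.0116), and not without N2B27 day 6 replicate 2 (adjusted p = 0.205). Against the Geltrex naive libraries of Ex1 that difference was -0.69 (adjusted p = 0.0386). At day 8 in mTeSR it was at -0.75 (95% interval -1.37 to -0.13, adjusted p = 0.0521). Against the naive libraries of the same experiment it was lower there (-0.93, adjusted p = 0.00588) and at day 6 in N2B27 (-1.13, adjusted p = 7.31e-04). Against the Geltrex naive libraries of Ex1 the mTeSR difference at day 8 was -0.49 and did not pass (adjusted p = 0.158). Within Ex2 TET3 was higher in FAX (0.79, adjusted p = 0.0425) and in N2B27 at day 4 (0.91, adjusted p = 0.0179).

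**Figure D3:**
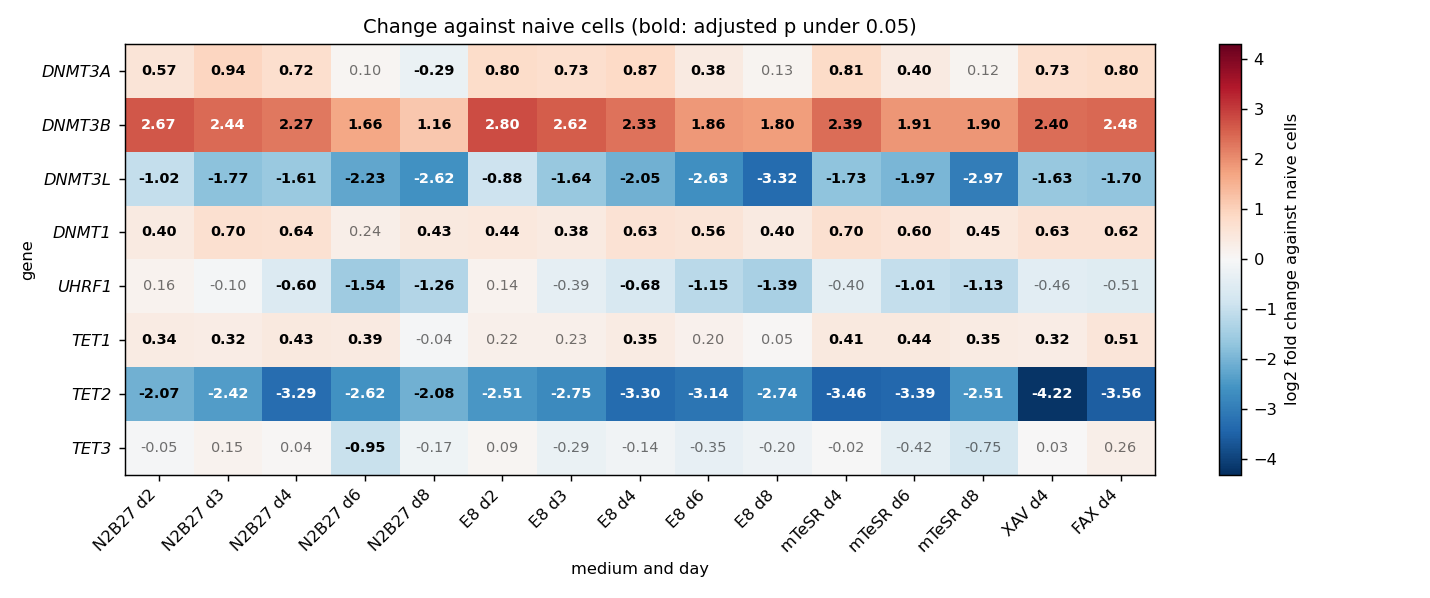
Log2 fold change of each gene (rows) against the 6 naive libraries in the 15 conditions (columns), with values printed and in bold where the adjusted p was under 0.05. DNMT3B is positive and DNMT3L and TET2 are negative in all 15 columns, DNMT3A turns from 0.94 at day 3 to -0.29 at day 8 in N2B27, and UHRF1 is below -1 in all columns of days 6 and 8.

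The naive libraries of both experiments were compared to see how much of these differences a repeat of the experiment gives. Time in culture may also differ between them, as the Ex2 naive columns carry a day 4 tag. Within Ex1, none of the 8 genes passed between naive cells on Geltrex and on serum (all genes: 0.174%), but both libraries on serum lay above both on Geltrex in 5 of them, DNMT3B, UHRF1, TET1, TET2 and TET3, as in 22.5% of all genes. The log2 differences of Geltrex from serum were -0.45 for UHRF1 (95% interval -0.70 to -0.21, adjusted p = 0.0821), -0.79 for TET3 (-1.26 to -0.32, adjusted p = 0.116), -0.64 for TET2 and -0.27 for DNMT3B. All cells outside the naive medium were on Geltrex, so the contrasts were also run against the Geltrex naive libraries of the same experiment, which was added after these values were seen. There 89 of the 120 pairs passed, where 40.1% of all pairs did, and 52 were called, where 21% were. Between experiments, 6 of the 8 genes were lower in the naive cells of Ex2 on Geltrex (all genes: 15.2%). The differences that passed without any single library were TET2 at -1.65 (SE 0.241, adjusted p = 1.65e-05), DNMT1 at -0.84 (SE 0.11, adjusted p = 3.16e-06) and UHRF1 at -0.81 (SE 0.134, adjusted p = 8.59e-05). The other 3 were DNMT3B (-0.36), DNMT3L (-0.42) and TET1 (-0.27), each lost without 1 of the 4 libraries compared: Ex1 naive Geltrex replicate 1 and Ex2 naive replicate 2 for all 3, and Ex1 naive Geltrex replicate 2 and Ex2 naive replicate 1 for DNMT3L, the latter also for TET1 (highest adjusted p = 0.215, 0.152 and 0.358). At day 4 in N2B27 none of the 8 passed between experiments (all genes: 3.87%). The change from naive cells to day 4 was tested between experiments after this difference was seen. It differed for DNMT1, which rose by 0.75 (SE 0.150, adjusted p = 0.00111) more on the log2 scale in Ex2, 2 of the 8 genes passing (all genes: 11.7%). The other was UHRF1, whose change was 0.76 higher in Ex2 (adjusted p = 0.00719) and did not pass without Ex2 N2B27 day 4 replicate 2 (adjusted p = 0.0547). This test used the Geltrex naive libraries of each experiment. On that base UHRF1 on day 4 in N2B27 was at -0.60 within Ex1 and at 0.16 (adjusted p = 0.458) within Ex2. DNMT3B rose by 2.36 within Ex1 and 2.52 within Ex2, and DNMT3L was at -1.79 and -1.24, so the directions of these 2 genes held in each experiment.

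**Figure D4:**
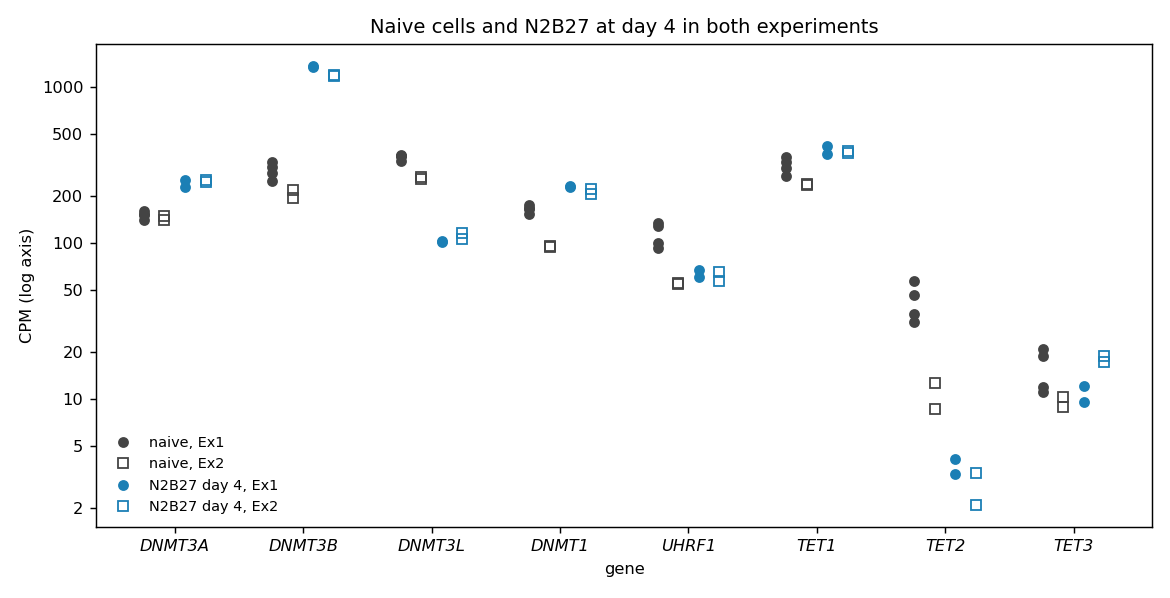
Level in CPM (log axis) of each gene in naive cells (grey) and at day 4 in N2B27 (blue) in Ex1 (filled circles) and Ex2 (open squares), 1 point per library. The naive points of DNMT1, UHRF1 and TET2 are lower in Ex2, with DNMT1 at 95.3 and 94.6 CPM against 208 to 231 CPM for all 4 day 4 libraries.

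Media were compared at equal days within Ex1 to ask whether the medium changes these genes. Of 88 gene and comparison pairs 11 passed, where 9.49% of all pairs did, a share near that of all genes. With the library score as covariate 17 passed (all pairs: 11.8%), and 17 with the compared libraries fitted alone (all pairs: 9.53%). None of the 11 exceeded 2-fold, where 3.25% of all pairs did. Of E8 against N2B27, 0 genes passed at days 2, 3 and 4 (all genes: 13.7%, 6.06% and 7.93%), 1 on day 6 (15.9%) and 3 on day 8 (19.3%). Of mTeSR against N2B27, 0 passed on day 4 (4.73%), 2 on day 6 (9.06%) and 3 on day 8 (10.9%). Of mTeSR against E8, 0 passed on day 4 (0.222%), 1 on day 6 (2.66%) and 1 on day 8 (14.1%).

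At day 8 the de novo methyltransferases were higher in E8 and mTeSR than in N2B27. DNMT3B was 0.64 higher (SE 0.101, adjusted p = 2.46e-05) on the log2 scale in E8 and 0.74 higher (SE 0.102, adjusted p = 6.45e-06) in mTeSR. DNMT3A was 0.43 higher in E8 (SE 0.106, adjusted p = 0.00425) and 0.42 higher in mTeSR, the latter lost without N2B27 day 8 replicate 1 or 2 or mTeSR day 8 replicate 2 (highest adjusted p = 0.190). DNMT3L was lower in E8, with a log2 difference of -0.70 (SE 0.160, adjusted p = 0.00195), and in mTeSR it differed from N2B27 by -0.36 (95% interval -0.67 to -0.04), which did not pass. Both DNMT3B differences and the DNMT3L difference in E8 passed in each alternative, and DNMT3A in E8 passed without any single library but not when the 4 libraries were fitted alone (adjusted p = 0.0666). The remaining 6 of the 11 passing pairs concerned DNMT1, UHRF1, TET1 and, between mTeSR and E8 at day 6, DNMT3L. They differed by at most 0.66, and each was lost without at least 2 of the 4 libraries compared, taken out singly (highest adjusted p 0.121 to 0.276). Markers of other lineages moved with the medium at day 8. The 5 primitive endoderm markers, all of which had counts in every day 8 library, summed to 152 to 171 CPM in N2B27, 18.1 to 22.7 CPM in E8 and 82.3 to 85.2 CPM in mTeSR, against 0.683 to 4.21 CPM in naive cells. The 6 trophectoderm markers summed to 60.2 to 71.8 CPM, 23.2 to 24.5 CPM and 19.3 to 20.4 CPM in the same order and 15.7 to 23.6 CPM in naive cells, with KRT7 and CGA near 0 in all 3 media and CDX2 near 0 in E8. The 6 fibroblast markers summed to 162 to 172 CPM, 102 to 103 CPM and 134 to 150.3 CPM, nearly all of it from the collagens COL1A1 and COL1A2, with DCN and LUM near 0. The 5 amnion markers summed to 41.9 to 51.3 CPM, 39.7 to 41.9 CPM and 24.6 to 27.4 CPM, with VTCN1 near 0. Their part in the day 8 differences of DNMT3A, DNMT3B and DNMT3L was not tested.

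**Figure D5:**
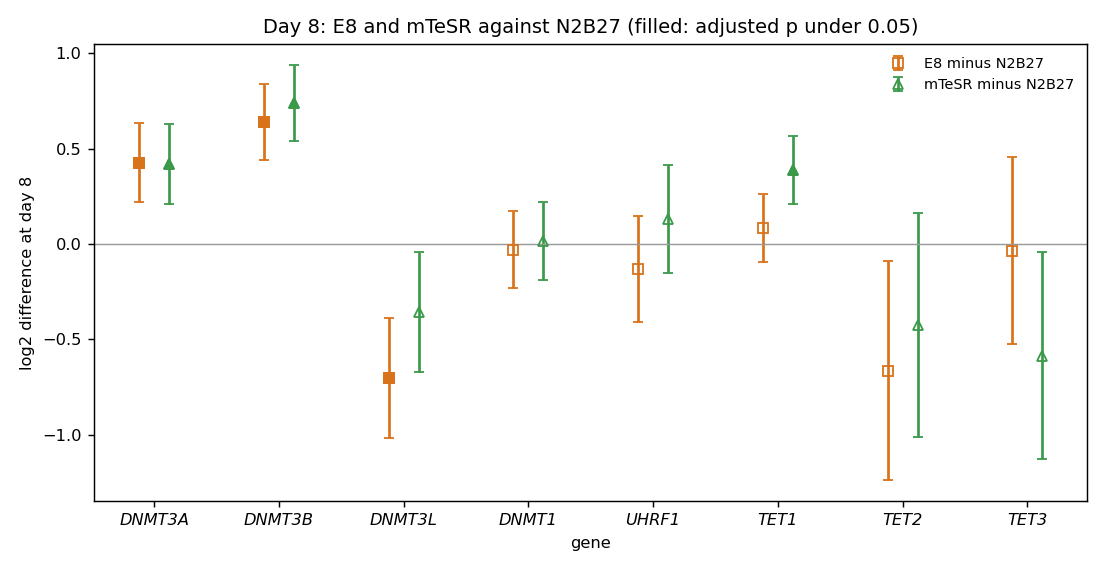
Log2 difference at day 8 of E8 (squares) and mTeSR (triangles) from N2B27 for each gene, 2 libraries per medium, with 95% intervals and filled symbols where the adjusted p was under 0.05. DNMT3A and DNMT3B are above 0 in both media, DNMT3L is at -0.70 in E8, and the intervals of TET2 and TET3 are the widest.

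The courses over days were also tested as a whole. E8 and N2B27 differed in their course over days 2 to 8 for 4 of the 8 genes (all genes: 11%): DNMT3L (adjusted p = 0.0160), DNMT3B (0.0163), DNMT3A (0.0276) and DNMT1 (0.0403). DNMT3B and DNMT3L passed in each of 7 alternatives, DNMT3A and DNMT1 did not without the filter (adjusted p = 0.0620 and 0.0905) or with DESeq2 (adjusted p = 0.0522 and 0.0884), nor DNMT1 with plain library totals (adjusted p = 0.0817). UHRF1 (adjusted p = 0.120) and the 3 TET genes (0.295 to 0.918) did not pass. Over days 4 to 8 in N2B27, E8 and mTeSR only DNMT3B passed (adjusted p = 0.00808, all genes: 3.24%).

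Steps between consecutive days placed the changes in time. Of 80 gene and step pairs 22 passed, 1 higher and 21 lower, where 7.4% of all pairs passed. The step from day 4 to 6 in N2B27 changed the most genes, 5 of 8 (all genes: 12.5%), all lower. The log2 difference was -0.96 for UHRF1 (SE 0.137, adjusted p = 1.13e-05), -0.70 for DNMT3B (SE 0.101, adjusted p = 1.35e-05) and -0.59 for DNMT3A (SE 0.103, adjusted p = 1.78e-04). These 3 passed without any single library, whereas DNMT1 (-0.45) did not without N2B27 day 6 replicate 2 (adjusted p = 0.0979), nor DNMT3L (-0.56) without N2B27 day 4 replicate 1 or day 6 replicate 1 (highest adjusted p = 0.0960). The same step passed for 4 genes in E8 (all genes: 6.85%) and 3 in mTeSR (all genes: 8.83%). Of those 7, UHRF1 in mTeSR (-0.61, SE 0.135, adjusted p = 0.00320) passed without any single library. DNMT3L fell at other steps as well, with log2 differences of -0.74 in N2B27 and -0.75 in E8 from day 2 to 3 (adjusted p = 6.55e-04 and 2.82e-04), and -1.0 in mTeSR from day 6 to 8 (adjusted p = 1.57e-04). The first of these did not pass when the 4 libraries were fitted alone (adjusted p = 0.148). In these 3 steps 2, 2 and 1 of the 8 genes passed (all genes: 10.7%, 21.4% and 2.23%). Steps from day 3 to 4 passed for 1 gene in N2B27 (all genes: 3.36%) and 0 in E8 (1.97%), and steps from day 6 to 8 for 3 in N2B27 (3.58%) and 1 in E8 (2.49%). Of all 22, 15 were lost without at least 1 of the 4 libraries compared (highest adjusted p 0.0501 to 0.410).

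Tankyrase inhibition alone or with FGF2 and Activin A was compared with N2B27 at day 4 within Ex2. None of the 8 genes passed with XAV against N2B27 (all genes: 1.34%), with FAX against N2B27 (0.846%) or with FAX against XAV (0.012%). DNMT3B stood at 1406 and 1373 CPM in XAV and 1515 and 1441 CPM in FAX, above both N2B27 libraries of Ex2 (1195 and 1179 CPM). The difference was 0.23 for XAV (95% interval 0.03 to 0.42, adjusted p = 0.445) and 0.32 for FAX (0.12 to 0.51, adjusted p = 0.178). When the 4 libraries were fitted alone both passed (adjusted p = 0.00309 and 4.50e-05), and the FAX difference also passed with the library score as covariate (adjusted p = 0.0196), so whether these passed depended on the fit. DNMT3L was at 104 and 105 CPM in XAV and 103 and 97.5 CPM in FAX, and UHRF1 at 70.8 and 67.3 CPM and 68.3 and 65.3 CPM. Against all naive libraries UHRF1 was at -0.46 (adjusted p = 0.0947) in XAV and -0.51 (adjusted p = 0.0658) in FAX, and against those of Ex2 alone at 0.33 and 0.29, the opposite sign, none of the 4 values passing.

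The partners of these enzymes were counted in lists to place the 8 genes in their pathways, and the value given for a named gene is its log2 fold change against naive cells unless another comparison is named. Of all genes, 18.9% were higher and 16.4% lower at day 2 in N2B27, and at day 8 24.7% and 20.4% in N2B27, 26.8% and 23.1% in E8, and 24.7% and 20.7% in mTeSR. Of 12 maintenance partners, 7 were higher and 1 lower at day 2 in N2B27, and 6 and 2 at day 8 in N2B27, 6 and 2 in E8, and 7 and 2 in mTeSR, with medians of 0.15, 0.22 and 0.33 at day 8, and medians of -0.03, 0.00 and -0.02 over all genes. HELLS, a chromatin remodeller needed for methylation of heterochromatin, was higher by 1.29 at day 2 and by 0.85 at day 8 in N2B27 (adjusted p = 5.33e-14 and 6.75e-10). Its activator CDCA7 was higher by 0.95 and TRIM28, a corepressor that keeps imprints and transposons methylated, by 0.97 at day 2 (adjusted p = 8.69e-07 and 6.01e-06). UHRF2, the paralogue of UHRF1, was higher at day 8, by 1.59 in N2B27, 1.11 in E8 and 1.16 in mTeSR (adjusted p = 2.54e-09, 4.72e-06 and 4.19e-06), the direction opposite to UHRF1. It went from 5.12 to 11.4 CPM in naive libraries to 24 to 27.8 CPM at day 8 in N2B27. PCLAF, which binds the replication clamp PCNA and helps to bring DNMT1 to it, was higher by 3.82 (adjusted p = 6.63e-14) in N2B27 at day 8. The log2 difference of PCLAF between E8 and N2B27 at day 8 was -2.88 (adjusted p = 8.50e-08), and -3.79 without E8 day 8 replicate 1.

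Of 13 genes that act with the TET enzymes or remove oxidised bases, 5 were higher and 1 lower at day 8 in N2B27, 7 and 2 in E8, and 5 and 2 in mTeSR, with medians of 0.38, 0.57 and 0.35. IDH2, the mitochondrial isocitrate dehydrogenase, was higher by 2.20, 1.78 and 2.07 in N2B27, E8 and mTeSR (adjusted p = 1.18e-08, 1.25e-06 and 9.99e-08). GADD45A, a stress-induced protein linked to demethylation, was higher by 2.24, 2.25 and 1.73 (adjusted p = 4.57e-08, 3.41e-08 and 1.01e-05), and by 3.01, 3.03 and 2.50 against the naive libraries of Ex1 alone. In N2B27, CXXC5, a CXXC domain protein that interacts with TET2, was at 1.17 and PARP1, which acts in base excision repair, at -1.09 (adjusted p = 1.15e-10 and 3.80e-09). Of 5 histone methyltransferases linked to the targeting of DNMT3A and DNMT3B, 3 were higher and 0 lower at day 2 in N2B27, namely EHMT2 (0.89), NSD1 (0.86) and NSD2 (0.74). At day 8 NSD2, which like NSD1 writes methylation at lysine 36 of histone H3, was higher by 1.5, 1.28 and 1.63 in N2B27, E8 and mTeSR. At that day 1 of the 5 was higher and 0 lower in N2B27, 2 and 1 in E8, and 2 and 1 in mTeSR (medians -0.07, 0.07 and 0.14). Of 7 readers of methylated CpG sites, 2 were higher and 3 lower at day 8 in N2B27, 2 and 3 in E8, and 2 and 2 in mTeSR (medians -0.10, -0.38 and -0.08). Of 9 tested genes of methyl donor supply, 1 was higher and 3 lower in N2B27, 3 and 4 in E8, and 1 and 2 in mTeSR (medians -0.14, -0.31 and -0.19). BHMT, which remethylates homocysteine, was at -2.88, -2.97 and -2.57 (adjusted p = 2.87e-05, 2.30e-05 and 1.91e-04).

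Germline genes whose promoters are known to be silenced by methylation went in both directions. Of 16 listed genes 12 were tested, and 0 were higher and 6 lower at day 8 in N2B27 (medians -0.53 for the list and -0.03 for all genes). In E8 the counts were 5 and 6 and in mTeSR 3 and 6, with medians of -0.06 and -0.46. STK31, a kinase of germ cells, was at -2.85, -2.56 and -3.38 in N2B27, E8 and mTeSR (adjusted p = 1.27e-08, 5.72e-08 and 7.13e-09). HORMAD1, a protein of the meiotic chromosome axis, was at -1.52 in N2B27 and -4.08 in E8, and SYCP3, of the synaptonemal complex, at -1.84 in N2B27 and -2.36 in mTeSR. Without replicate 2 of the condition itself, HORMAD1 was at -2.38 in N2B27 and STK31 at -3.97 in mTeSR. PIWIL2, a protein of the piRNA pathway, was 2.87 higher in E8 than in N2B27 at day 8 (adjusted p = 2.88e-09). This is a difference between media and not a change from naive cells. DAZL, an RNA-binding protein of germ cells, had no counts in naive libraries and 2.35 and 2.81 CPM in E8 at day 8.

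By their courses over the 16 levels of medium and day, the 8 genes had different nearest genes. Among 7107 genes with a mean of at least 20 CPM, ETV4 was one of those whose mean log2 CPM was closest to that of DNMT3B (r = 0.967), that of DNMT3L followed ATL2 (0.971), and that of UHRF1 followed ARFIP1 (0.976). Without the naive level the values were 0.919, 0.985 and 0.984. For TET2 the nearest was GPC3 (0.932, and 0.836 without the naive level), while for TET1 the nearest, ITPK1, reached 0.811. The levels share their libraries between genes, and these values are descriptions over 16 points. In the order of the 16 mean levels, neighbours did not overlap for 6 of 15 pairs in DNMT3B and in DNMT3L and 4 in UHRF1. They did not for 3 in DNMT3A, TET1 and TET2, 2 in DNMT1 and 1 in TET3. Most neighbouring levels could thus not be told apart by their libraries. That order was set by the same values. The share over all genes was not counted for these pairs, nor for conditions lying outside the naive range. Such counts therefore do not set the 8 genes apart from other genes. From the highest to the lowest mean level the range was 18.7-fold in TET2 (from naive cells to XAV, where it had 5 and 12 counts), 10.0-fold in DNMT3L, 6.97-fold in DNMT3B, 3.27-fold in UHRF1, 2.35-fold in DNMT3A, 2.32-fold in TET3, 1.63-fold in DNMT1 and 1.46-fold in TET1. For TET2 the log2 fold change of XAV was -4.22 against all naive libraries, -2.60 against those of Ex2 and -4.96 without XAV replicate 2.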

How the data were processed

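RNA of Shef6 cells was sequenced in 38 3′ end libraries (QuantSeq). The authors deposited raw counts per gene, whole numbers in 1 table, made with a published pipeline that ran FastQC 0.11.9, STAR 2.7.10a and Salmon 1.9.0 on hg38, and compared them with DESeq2. Each column of the table was matched to its sample by name, and 0 columns were left over. 3′ counting gives no length bias but reads only the transcript end, so isoforms of a gene are not separated.

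Counts were tested here with edgeR 4.0.16 (R 4.3.3, limma 3.58.1), with TMM scaling, filterByExpr (16674 genes kept, 99.65% of counts) and quasi-likelihood F-tests. Within each fit the spread was estimated per gene over all libraries. The common coefficient of biological variation was 10.0% in the fit with 19 groups. Contrasts against naive cells used 16 levels with the 6 naive libraries pooled, and all others used the 19 groups of 2. Adjusted p-values are Benjamini-Hochberg values over all genes tested, and intervals are at the 95% level. CPM values are counts relative to the TMM-scaled library size. The floor of counts covers counting error only. The sources describe the replicates in places as technical and in places as biological, so p-values measure only the spread between these libraries. Replicate numbers did not pair the libraries: over 171 pairs of groups the correlation of same-numbered deviations was -0.54 to 0.45 (median 0.001). Replicates differed by more than sampling noise. Counts were also simulated for the 16674 genes. The comparison of day 8 in N2B27 with naive cells recovered 60% of 50 genes raised 1.5-fold, 86% of 50 raised 2-fold and 100% of 50 raised 4-fold. That of E8 with N2B27 at day 8 recovered 26%, 76% and 100%. Of 50 genes lowered to 0.5-fold, 74% and 60% were recovered in these 2 comparisons. Every simulated gene had the same spread and no gene with few counts was changed, so real genes with a wider spread or few counts are not covered. Alternatives were DESeq2 1.42.0, other scalings and filters, a replicate block, a library score or the experiment as covariate, naive libraries of the same experiment, those of them on Geltrex, the compared libraries alone, and each library left out. The 8 genes were described in every comparison. List genes named with values were up to 4 per list and comparison, with the largest change among those past the test. DAZL, which had no counts in naive cells, was given as a level. Nearest genes were those with the highest Pearson correlation of mean log2 CPM (prior count 2) over the 16 levels, and not every one of them is reported here. The members and lists were chosen with earlier results of these data known, and the comparison of changes between experiments, the Geltrex alternative and the E2F search were chosen after the data were seen. Protein sequences were not used here.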

Additional observations from a re-analysis of the deposited data

Results flagged for a closer look

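The courses of DNMT3L (adjusted p = 0.0160), DNMT3B (0.0163), DNMT3A (0.0276) and DNMT1 (0.0403) over days 2 to 8 differed between E8 and N2B27 in the test of the difference itself. DNMT3A and DNMT1 did not pass with no filter (adjusted p = 0.0620 and 0.0905) or with DESeq2 (0.0522 and 0.0884), nor DNMT1 with plain library totals (0.0817). DNMT3B also differed between N2B27, E8 and mTeSR over days 4 to 8 (adjusted p = 0.00808). At day 8 DNMT3B was 0.64 higher in E8 and 0.74 higher in mTeSR than in N2B27 on the log2 scale.

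The change from naive cells to day 4 in N2B27 differed between the experiments for DNMT1, by 0.75 (log2), and for UHRF1, by 0.76 (log2). Both genes were lower in the naive libraries of Ex2 than in those of Ex1 and did not pass between experiments at day 4. In the 16 gene and condition groups with 4 or more libraries, Dixon's test at the 95% level marked no single library, and this test cannot show libraries that stand apart as a pair, as the Ex2 naive libraries did for DNMT1 and TET2.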

How the results depend on the processing

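Of 187 tracked values, 187 kept their direction and their side of the test's threshold with DESeq2, 186 with RLE scaling, 186 with a filter of more than 10 counts in 2 libraries, 181 with plain library totals, 174 with no filter and 152 with the compared libraries fitted alone (31 lost). With plain library totals the median of all genes lay at -0.149 to 0.166 (log2) over the comparisons, and in the main fit at -0.031 to 0.051. With the replicate number as a block, 185 did, the exceptions being DNMT1 at day 3 in E8 (adjusted p = 0.0522) and the change of DNMT3L between experiments, which then passed (0.55, adjusted p = 0.0482). Gene and comparison pairs that passed between media numbered 11, and 17 with the library score as covariate and 17 with the compared libraries alone. Between consecutive days 1 pair was called over 2-fold, and 0 with RLE scaling, with the filter of more than 10 counts, with the library score, with the compared libraries alone and with DESeq2. With XAV or FAX 0 pairs passed, 1 with the library score and 2 with the compared libraries alone. The difference in change between experiments passed for 2 genes, and for 4 with the compared libraries alone. The courses in E8 and N2B27 differed for 4 genes, and for 2 with no filter and 2 with DESeq2 (DNMT3A and DNMT1 lost). UHRF1 in XAV against naive cells turned from -0.46 to 0.0062 with the experiment as covariate and to 0.33 against the naive libraries of the same experiment, and UHRF1 in FAX from -0.51 to 0.29 in the latter. Against the Geltrex naive libraries of the same experiment, chosen after the data were seen, 128 of 138 values kept both, 7 no longer passed (6 of them DNMT1, the other E2F1 in mTeSR at day 8), and 3 turned, DNMT1 at day 6 in N2B27 to -0.012 and UHRF1 in XAV and FAX to 0.34 and 0.29. The cause of these changes was not tested. With 1 library left out at a time, pairs passing against naive cells numbered 87 to 93 and called pairs 48 to 51, passing pairs between media 8 to 16, between days 18 to 24 (called 0 to 2), between naive coatings and experiments 3 to 7, and in the change between experiments 1 to 3. Of 1334 such values 95 no longer passed and 9 newly passed. TET2 and TET3 rested on the fewest counts, 5 to 258 and 21 to 94 per library.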
